A study of Mus musculus with 38 samples.

Results

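The genes of MHC class I antigen presentation studied here, 10 of the 55487 genes in the deposited tables, were described in mouse tumors of high-grade serous ovarian cancer (HGSOC) and in the cell lines that form these tumors. They were chosen by gene symbol and not by a rule on their values, though earlier results of these data were known. The members were H2-K1 and H2-D1, B2m, Tap1 and Tap2, Tapbp, Psmb8, Psmb9 and Psmb10, and Nlrc5, and all 10 passed the filter on low counts in tumors and in cell lines. RNA came from omental tumors of 2 syngeneic models. The 60577 cells were grown in wild type FVB mice (17 tumors) and the HGS2 cells in wild type C57BL/6J mice (17 tumors), all female and aged 8 to 9 weeks at intraperitoneal injection. Treated mice received 3 weekly doses of carboplatin at 20 mg/kg with paclitaxel at 10 mg/kg, starting 21 days after injection of 60577 and 49 days after injection of HGS2. Tumors were collected 1 day (TP1), 7 days (TP2) or 21 days (TP3) after the last dose. In 60577 there were 3 control and 3 treated tumors at TP1, 3 control and 4 treated tumors at TP2, and 4 treated tumors at TP3. In HGS2 there were 3 control and 3 treated tumors at TP1, 4 control and 3 treated tumors at TP2, and 4 treated tumors at TP3. No TP3 control tumors were among the samples, so TP3 was compared with the TP2 controls. Each model is a single cell line, and the 2 libraries of each line grown alone (4 libraries) were the only samples without host cells.

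MHC class I molecules show peptides from inside the cell to CD8+ T cells. The proteasome cuts proteins into peptides, the TAP transporter moves the peptides into the endoplasmic reticulum, and the loading complex places them on a heavy chain paired with beta-2-microglobulin. H2-K1 and H2-D1 encode heavy chains, B2m the light chain, Tap1 and Tap2 the transporter, and Tapbp the loading chaperone tapasin. Psmb8, Psmb9 and Psmb10 encode the catalytic subunits of the immunoproteasome, which take the places of Psmb5, Psmb6 and Psmb7 of the constitutive proteasome. Nlrc5 is a transactivator that acts on class I promoters. Interferon gamma is known to raise most of these genes, and leukocytes express them more than most other cells do.

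The members lie on 3 chromosomes (GRCm38). H2-K1 (17:33996017-34000347), Tapbp (17:33915899-33929292), Psmb9 (17:34181987-34187764), Tap1 (17:34187553-34197225), Psmb8 (17:34197721-34201454), Tap2 (17:34203527-34216321) and H2-D1 (17:35262730-35267499) are in the MHC on chromosome 17. B2m (2:122147686-122153083) is on chromosome 2, and Psmb10 (8:105935735-105938444) and Nlrc5 (8:94434356-94527272) are on chromosome 8. Tap1 and Psmb9 overlap on opposite strands at their 5′ ends. The libraries were strand-specific.

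Promoter windows from RefSeq (GRCm38.p6, 250 bases before to 50 after a gene start) matched 8 of the 10 members, all but Tap2 and Nlrc5. The sequences of H2-K1, H2-D1 and B2m are shown because these are the class I chains and because their windows share an arrangement. Capitals mark an interferon regulatory factor core (AANNGAAA), an NF-kB core site (GGGNNTTCC), and TGACG followed after 20 bases by ATTGG, the spacing of the X2 and Y boxes through which NLRC5 is known to act. All were searched on both strands, and the letters were chosen after the sequences had been seen.
H2-K1, chr17:34000298-34000597, minus strand: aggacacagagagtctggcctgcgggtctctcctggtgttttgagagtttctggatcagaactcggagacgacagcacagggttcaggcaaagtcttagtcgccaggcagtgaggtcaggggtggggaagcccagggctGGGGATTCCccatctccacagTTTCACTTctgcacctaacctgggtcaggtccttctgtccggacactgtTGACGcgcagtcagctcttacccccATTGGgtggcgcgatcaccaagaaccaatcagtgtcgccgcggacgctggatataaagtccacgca
H2-D1, chr17:35262844-35263143, plus strand: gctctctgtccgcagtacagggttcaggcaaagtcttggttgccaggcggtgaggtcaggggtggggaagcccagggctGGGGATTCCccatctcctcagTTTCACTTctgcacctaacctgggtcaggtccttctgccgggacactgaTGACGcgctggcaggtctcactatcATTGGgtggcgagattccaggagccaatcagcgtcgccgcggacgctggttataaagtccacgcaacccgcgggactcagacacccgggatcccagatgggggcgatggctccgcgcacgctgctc
B2m, chr2:122147437-122147736, plus strand: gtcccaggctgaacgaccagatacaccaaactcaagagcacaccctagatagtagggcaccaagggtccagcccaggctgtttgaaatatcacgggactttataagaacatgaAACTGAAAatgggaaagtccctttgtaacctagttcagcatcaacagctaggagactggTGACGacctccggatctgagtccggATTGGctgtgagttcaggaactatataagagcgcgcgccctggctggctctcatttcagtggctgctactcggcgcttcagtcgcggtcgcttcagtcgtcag
The X2 to Y spacing was in the windows of these 3 members and in 0.0944% of all 32851 windows. The interferon regulatory factor core was in the same 3 members and in 23.9% of all windows, and the NF-kB core site was in H2-K1 and H2-D1 and in 5.82% of all windows. These are letters of the C57BL/6J reference, and the FVB sequence of 60577 was not used here.

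Reads of near-identical genes can be split between them. Of the 75-base stretches in the longest transcript, 6.9% in H2-D1 and 1.33% in H2-K1 also occurred in transcripts of other genes, mainly other class I genes, and 0.992% in Tapbp. The other 7 members shared none. FVB mice carry another H2 haplotype than the C57BL/6J reference, so differences of H2-K1 and H2-D1 between the models cannot be told apart from differences in how reads matched the reference.

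The tumor libraries held 17839641 to 49299421 counts and the cell line libraries 31633099 to 42461989. In 60577 TP2 treated replicates 3 and 4, 7SL RNA took 19.4% and 26.5% of the counts and mitochondrial genes 0.399% and 0.36%, against 0.833% to 1.54% mitochondrial counts in the other 60577 tumors. Pancreas acinar genes summed to 34303, 60571 and 40669 CPM in HGS2 TP1 control replicate 3, TP2 control replicate 2 and TP3 treated replicate 2. Member and ratio calls that changed without these libraries are given with and without them. HGS2 TP3 treated replicate 1, which the study's tables leave out, entered only an alternative fit with all 17 HGS2 tumors, in which as many members were called in each comparison, and its levels are given. 60577 TP2 control replicate 1 also stood apart from the other TP2 controls of 60577, with pancreas acinar genes at 1100 CPM against 10.5 and 133, and 7SL RNA at 14.1% against 2.91% and 3.81%. It had the highest level in its group for 10 of 10 members, and the share of all genes highest in it was not counted.

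In the cell lines, the heavy and light chains and Tapbp were expressed, whereas Psmb8, Psmb9 and Nlrc5 were low. All levels are RPKM, which is per length, and tumors and cell lines were scaled separately and not tested against each other. Nlrc5 was at 0.223 and 0.278 RPKM in 60577 cells and at 0.584 and 0.0445 in HGS2 cells (69, 105, 147 and 14 counts). The lowest of the 34 tumors was at 1.96 RPKM and the highest at 51.7. Every tumor therefore lay above every cell line library for this gene.

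Psmb9 was at 0.869 and 0.706 RPKM in 60577 cells and at 1.11 and 0.354 in HGS2 cells, against 3.33 to 24.1 in tumors. Psmb8 was at 2.63 and 2.37 RPKM in 60577 cells and at 2.94 and 0.639 in HGS2 cells, against 7.16 to 46.5 in tumors. Tap1 was at 2.48 and 2.1 RPKM in 60577 cells and at 7.68 and 2.34 in HGS2 cells. These 3 genes belong to the same stretch of the MHC. The Tap1 range of tumors, 6.2 to 66.2 RPKM, overlapped that of HGS2 cells. Psmb10 was at 8.83 to 8.85 RPKM in 60577 cells and at 10.2 to 14.3 in HGS2 cells. Its tumor range, 13.05 to 46.6 RPKM, overlapped that of HGS2 cells. Tap2 was at 4.36 to 5.02 RPKM in 60577 cells and at 3.54 to 7.88 in HGS2 cells, against 12.1 to 46.2 in tumors.

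Tapbp differed least between cell lines and tumors. It was at 112 and 133 RPKM in 60577 cells, at 166 and 63.8 in HGS2 cells and at 84.8 to 191 in tumors. B2m was at 164 and 200.1 RPKM in 60577 cells, at 360 and 126 in HGS2 cells and at 145 to 1443 in tumors. H2-K1 was at 67.4 and 68.1 RPKM in 60577 cells and at 65.7 and 23.6 in HGS2 cells, and H2-D1 at 128 and 152 and at 70.3 and 34.6. In tumors H2-K1 was at 95.6 to 898 RPKM and H2-D1 at 180 to 1032, above every cell line library. All 10 of 10 members were lower in the second HGS2 library than in the first. The share of all genes lower there was not counted. Over all genes the 2 HGS2 libraries differed more (chi-square per degree of freedom 215) than the 2 libraries of 60577 (50.8). Between the cell lines 0 of 10 members passed the test, where 18.9% of all genes did. In simulated counts with 200 changed genes, fewer than were called here, this fit recovered 0% of genes changed by 1 on the log2 scale. It recovered 77.5% of those changed by 2. H2-D1 had the widest difference, HGS2 minus 60577, of -1.42 ± 0.37 in log2 (SE, 2 against 2 libraries, adjusted p = 0.0549). Ptprc, the leukocyte marker CD45, was at 0 in both HGS2 libraries and had 2 counts in 1 of the 60577 libraries.

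**Figure D1:**
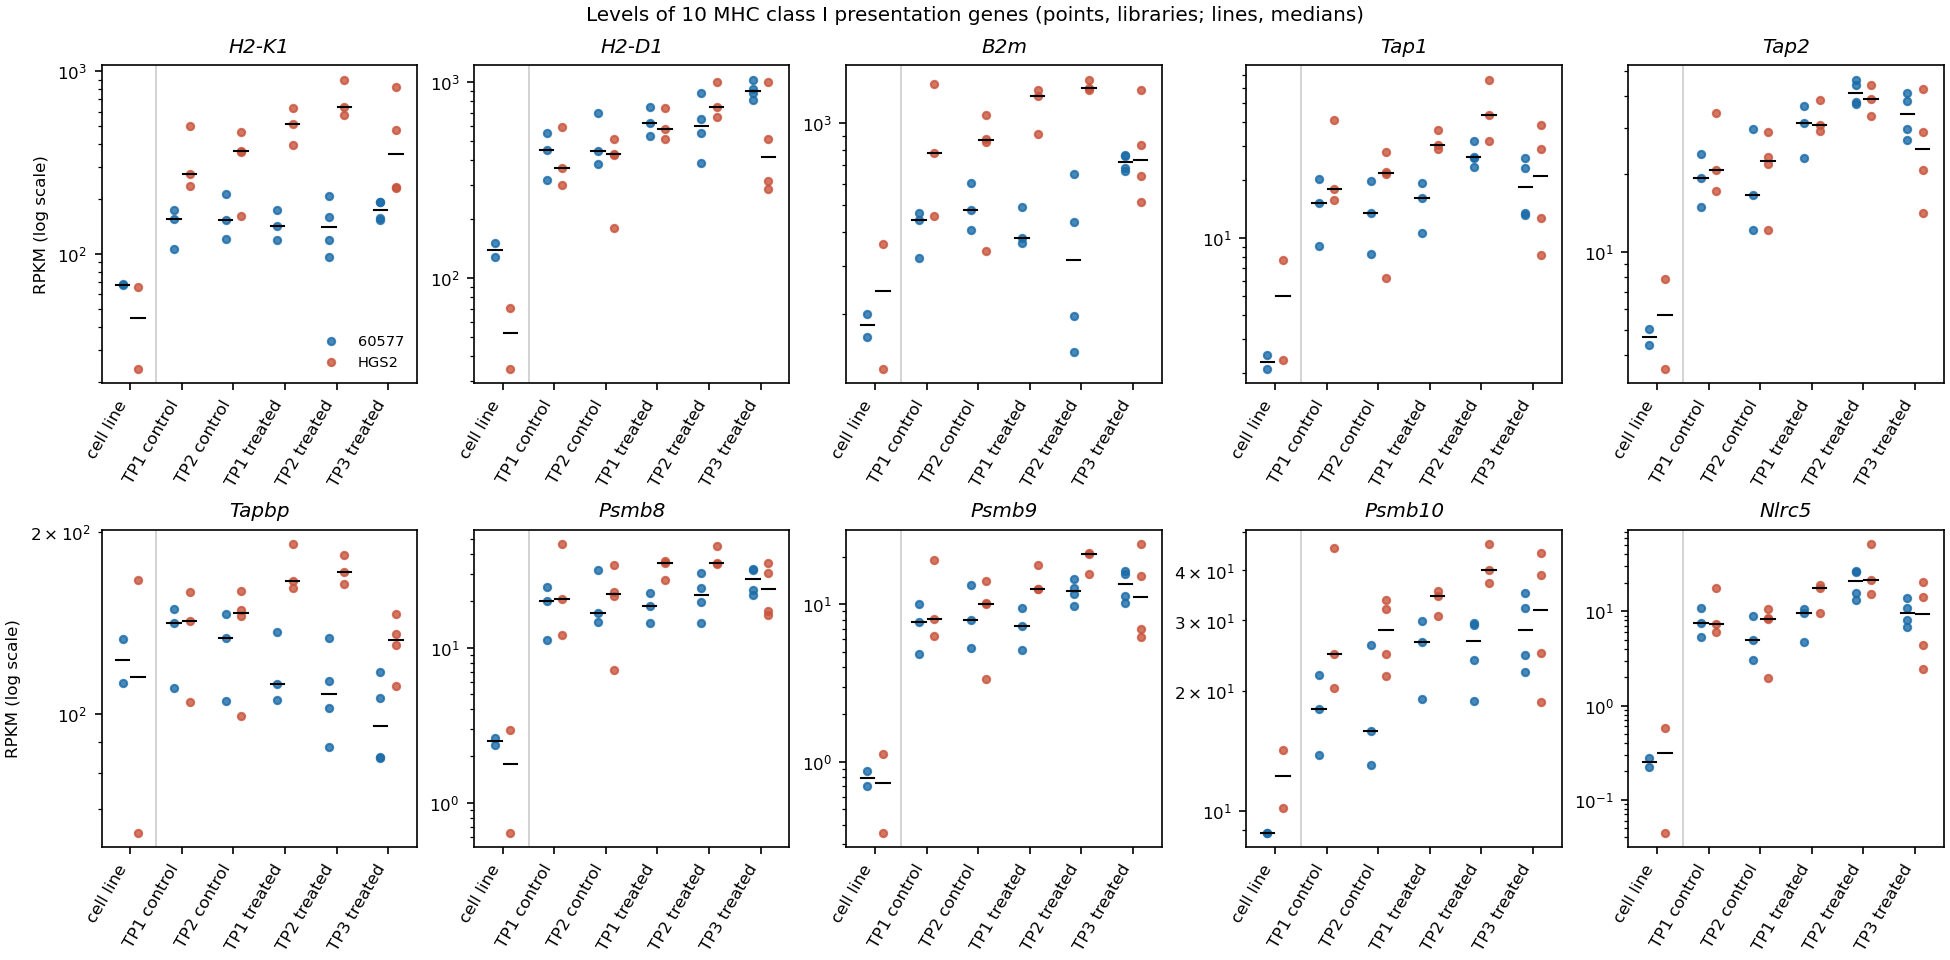
Levels of the 10 members in RPKM (log axis) in the cell lines and in control and treated tumors of 60577 (blue) and HGS2 (red). Each point is a library and each black line a group median. Nlrc5, Psmb8, Psmb9, Tap2, H2-K1 and H2-D1 of every tumor lie above the cell lines. The ranges of Tapbp, B2m, Tap1 and Psmb10 overlap.

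In 60577 tumors 1 day after treatment, no member passed the test (0 of 10), where 33.4% of all genes did. Log2 fold changes ran from -0.17 for Tapbp to 0.66 for Tap2, with a 95% interval of 0.07 to 1.25 for Tap2 (adjusted p = 0.08). Tap2 was at 14.9, 23.8 and 19.3 RPKM in TP1 controls and at 23.02, 36.7 and 31.4 in treated tumors, and the groups overlapped. Without TP2 control replicate 1, which entered the same fit, Tap2 was called (adjusted p = 0.0275). Nlrc5, at 5.34, 10.9 and 7.45 RPKM in controls and 4.77, 9.65 and 10.5 in treated tumors, showed no separation.

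At TP2, Nlrc5, Tap2 and Tap1 were higher in treated 60577 tumors, which is 3 of 10 members (30%), beside 29.3% of all genes higher. Nlrc5 was at 8.91, 3.03 and 4.95 RPKM in controls and at 13.3, 15.6, 25.8 and 26.4 in treated tumors. All 4 treated tumors lay above all 3 controls, and the difference was 1.84 ± 0.41 in log2 (SE, adjusted p = 0.00154). Without the 2 tumors low in mitochondrial reads, which had the highest Nlrc5 levels, it was 1.36 (adjusted p = 0.0233).

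Tap2 was at 29.9, 12.2 and 16.6 RPKM in TP2 controls and at 37.8, 44.2, 37.2 and 46.2 in treated tumors, again without overlap. The difference was 1.07 ± 0.27 in log2 (adjusted p = 0.00323) and remained 1.07 without those 2 tumors. Tap1 was at 19.8, 8.29 and 13.6 RPKM in controls and at 23.3, 26.1, 26.4 and 31.8 in treated tumors. The Tap1 difference, 0.94 ± 0.33 (adjusted p = 0.0238), was no longer called without the 2 tumors (0.83, adjusted p = 0.108) or with the replicate block (0.85). It was also lost without TP2 control replicate 2 (0.68) or 3 (0.92) or treated replicate 4 (0.85), whereas the calls of Nlrc5 and Tap2 at TP2 held in every alternative that was run.

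The chains of the class I molecule did not pass the test at TP2. H2-K1 had a log2 fold change of -0.16 (95% interval -0.71 to 0.38), H2-D1 of 0.27 (-0.30 to 0.85) and B2m of -0.49 (-1.27 to 0.30). B2m was at 604, 404 and 481 RPKM in controls and at 650, 434, 145 and 196 in treated tumors. The 2 low values were those of the tumors low in mitochondrial reads. Psmb8, Psmb9 and Psmb10 had log2 fold changes of 0.06, 0.46 and 0.46, and Tapbp of -0.24. Without these 2 tumors B2m was at 0.13 and H2-K1 at 0.18, so that both changed sign, H2-D1 was at 0.60, Psmb8 at 0.37, Psmb9 at 0.63 and Psmb10 at 0.68, and none of these was called. Without TP2 control replicate 1, Psmb9 (0.87, adjusted p = 0.0279) and Psmb10 (0.80, adjusted p = 0.0152) were called in addition.

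At TP3, H2-D1, Tap2 and Psmb10 were higher than in TP2 controls, which is 3 of 10 members beside 25.4% of all genes higher. H2-D1 was at 694, 385 and 447 RPKM in the controls and at 1032, 881, 812 and 930 in TP3 treated tumors, with every treated tumor above every control. H2-D1 thus rose by 0.85 ± 0.27 in log2 (adjusted p = 0.0164). That of H2-K1 over the same tumors was 0.11 (95% interval -0.44 to 0.65). Tap2 had 0.81 ± 0.26 (adjusted p = 0.0176) and Psmb10 0.65 ± 0.25 (adjusted p = 0.0429). Psmb10 was at 26.1, 13.0 and 15.9 RPKM in controls and at 32.2, 22.3, 24.6 and 35.1 in treated tumors, and the groups overlapped. None of the 3 calls held without TP2 control replicate 2 or 3, and without TP3 treated replicate 1 only that of H2-D1 did. With the replicate block Psmb10 was not called (0.61, adjusted p = 0.0918). Without the 2 TP2 tumors low in mitochondrial reads all 3 calls held, and B2m was called in addition (0.54, adjusted p = 0.021). Without TP2 control replicate 1, Psmb8 (0.82), Psmb9 (1.02) and Nlrc5 (1.32) were called in addition.

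Among treated 60577 tumors, Nlrc5 was higher at TP2 than at TP1 by 1.28 ± 0.40 in log2 (adjusted p = 0.0379) and was the 1 member called there, beside 9.43% of all genes higher. From TP2 to TP3, Nlrc5 fell by 1.02 on the log2 scale (SE 0.36 and adjusted p = 0.0401), 1 of 10 members beside 18.8% of all genes lower. B2m rose by 1.03 (SE 0.35, adjusted p = 0.0328), 1 of 10 beside 16.2% of all genes higher. Each of these 3 calls was lost without the 2 TP2 tumors low in mitochondrial reads, with values of 0.79, -0.54 and 0.41. With the replicate block both Nlrc5 calls were lost (1.16, adjusted p = 0.104, and -0.99, adjusted p = 0.0698). Psmb9 was higher at TP3 than at TP1 by 0.88 ± 0.31 (adjusted p = 0.0473), 1 of 10 beside 12.5% of all genes. This call held in 3 of 10 alternative settings and in 8 of 17 fits without 1 tumor, and was lost with the replicate block (0.81, adjusted p = 0.112). Without the 2 tumors low in mitochondrial reads Psmb9 was not called (0.86, adjusted p = 0.0516) and B2m was (0.80, adjusted p = 0.00577). Between the TP1 and TP2 controls 0 members and 0 (0%) of all genes were called by edgeR, with 1501 genes at an unadjusted p below 0.05.

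**Figure D2:**
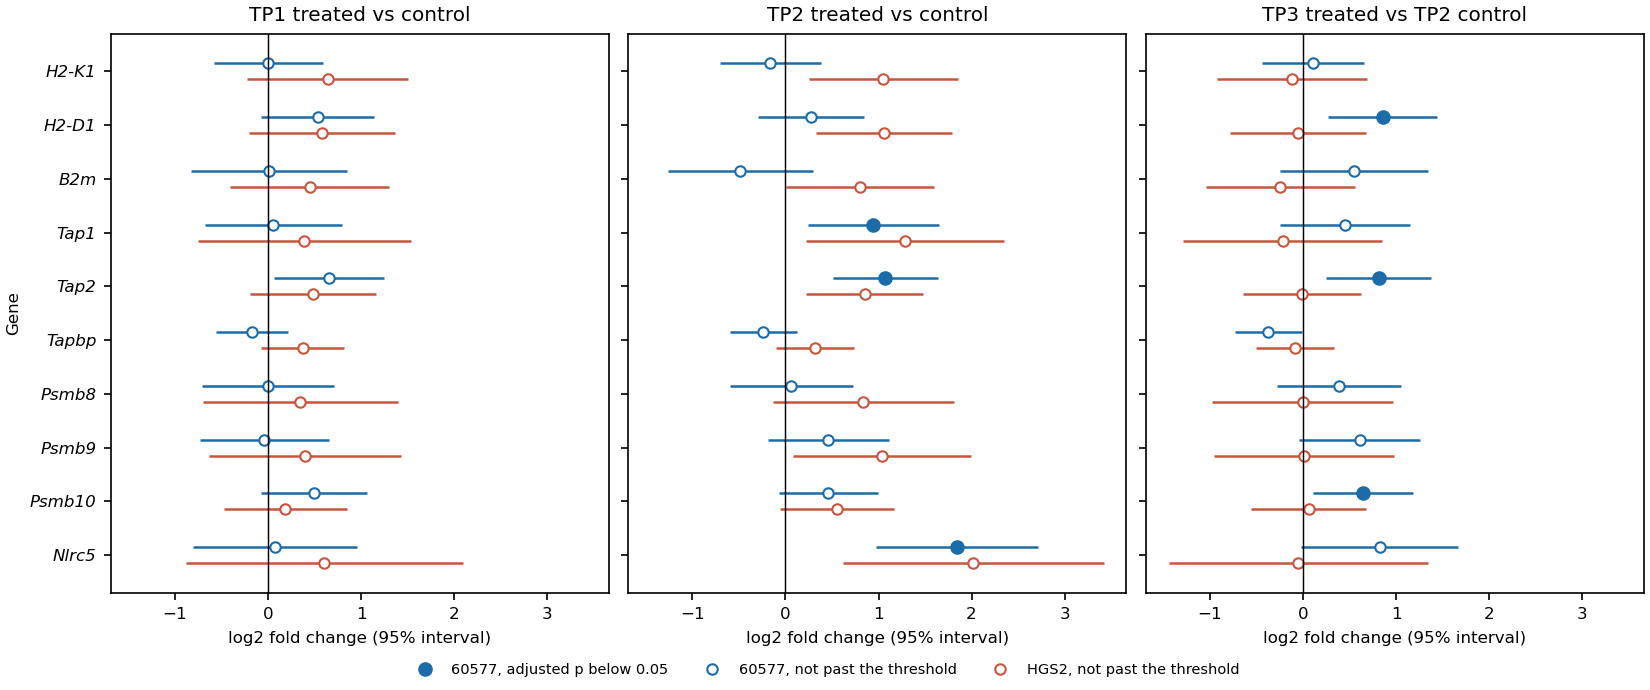
Log2 fold change of each member (points) with its 95% interval (lines) for treated against control tumors at TP1, TP2 and TP3, in 60577 (blue) and HGS2 (red). Filled points passed an adjusted p of 0.05; they are Tap1, Tap2 and Nlrc5 at TP2 and H2-D1, Tap2 and Psmb10 at TP3, all in 60577.

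Within 60577 tumors, H2-D1 stood higher relative to H2-K1 after treatment. Ratios of RPKM within each library were chosen after the levels had been seen, and treated tumors of all time points were compared with all controls of the model in an exact two-sided permutation test, adjusted over 8 tests. H2-D1 over H2-K1 was 2.88 to 3.26 in the 6 control tumors of 60577 and 4.04 to 5.62 in the 11 treated tumors, with no overlap. The median was 3.08 in controls and 4.45 in treated tumors, and the log2 difference was 0.594 (exact permutation p = 0.000162, adjusted p = 0.00129, the smallest the samples allow). Without the 2 TP2 tumors low in mitochondrial reads the log2 difference was 0.616 (exact permutation p = 0.0004). By time point the ratio was 4.33 to 4.45 at TP1, 4.04 to 4.6 at TP2 and 4.85 to 5.62 at TP3. In 60577 cells grown alone it was 1.9 and 2.22.

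In HGS2 the same ratio was 1.1 to 1.33 in 7 control tumors, 1.09 to 1.37 in 9 treated tumors and 1.07 and 1.47 in the cell line, with a log2 difference of 0.00347 (exact permutation p = 0.948). The difference between the models was 0.591 (permutation of the treatment labels within each model, adjusted p = 0.00048 over 4 ratios). In 60577 the median ratio was 4.33 at TP1, 4.16 at TP2 and 5.31 at TP3. Levels of cell type markers over the same tumors follow, and not all of them changed in that order. The summed level of the tumor epithelial markers over 8 genes was 900 to 1585 RPKM in controls, 137 to 366 in treated tumors and 2479 and 2672 in the cell line. The 4 pan-leukocyte markers summed to 38.8 to 78.9 RPKM in controls and 86.2 to 184 in treated tumors. The 4 macrophage markers summed to 73.2 to 134 RPKM in controls, 176 to 222 at TP1, 87.6 to 183 at TP2 and 197 to 221 at TP3. The 3 adipocyte markers summed to 0.198 to 1.58 RPKM in 60577 controls, 1.5 to 95.4 at TP1, 15.8 to 157 at TP2 and 295 to 439 at TP3. The 3 B cell markers summed to 0.545 to 5.25 RPKM in controls, 3.27 to 14.9 at TP1, 16.3 to 43.2 at TP2 and 56.4 to 80.5 at TP3. In bulk tumors, fewer cells of a type and less RNA per cell cannot be told apart, and the part of these markers or of read assignment between class I genes in the ratio was not tested.

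Each immunoproteasome subunit was also set against the constitutive subunit whose place it takes. Psmb10 over Psmb7 was 0.698 to 1.35 in 60577 controls and 1.27 to 3.84 in treated tumors (log2 difference 1.07, exact permutation p = 0.000323, adjusted p = 0.00129). Psmb9 over Psmb6 was 0.126 to 0.305 in controls and 0.132 to 0.786 in treated tumors (0.978, exact permutation p = 0.0152, adjusted p = 0.0405). Psmb8 over Psmb5 was 0.312 to 0.626 in controls and 0.305 to 1.18 in treated tumors (0.757, exact permutation p = 0.0234, adjusted p = 0.0468). At TP1 the last 2 ratios lay within the control range or below it, and at TP2 all 4 treated tumors lay above all 6 controls. Without the 2 tumors low in mitochondrial reads the Psmb10 ratio was still called (0.907), and the Psmb9 and Psmb8 ratios were not (adjusted p = 0.1 and 0.11). When each of the 17 tumors was left out in turn, the Psmb10 ratio was called 17 times, the Psmb9 ratio 6 times and the Psmb8 ratio 5 times.

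The lower side of these ratios moved at TP2. Psmb5, Psmb6 and Psmb7 were all lower in treated tumors (3 of 3), with log2 fold changes of -1.01, -0.99 and -1.03, beside 29.2% of all genes lower. Without the 2 tumors low in mitochondrial reads all 3 were still called, at -0.61, -0.56 and -0.57. At TP3 only Psmb5 of the 3 was called (-0.52), and without those 2 TP2 tumors in the fit all 3 were. In the cell lines Psmb6 was at 54.4 to 80.4 RPKM, against 12.4 to 73.1 in tumors, and Psmb9 over Psmb6 was 0.0044 to 0.0205. In HGS2 tumors the 3 ratios had log2 differences of 0.587, 0.587 and 0.45 for Psmb8, Psmb9 and Psmb10 (adjusted p = 0.193, 0.226 and 0.111), and the differences from 60577 did not pass the test (adjusted p = 0.747, 0.704 and 0.291). Without HGS2 TP3 treated replicate 3 all 3 HGS2 ratios were called. That library had 20038 genes with a count, against 22399 to 23580 in the other fitted HGS2 tumors.

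**Figure D3:**
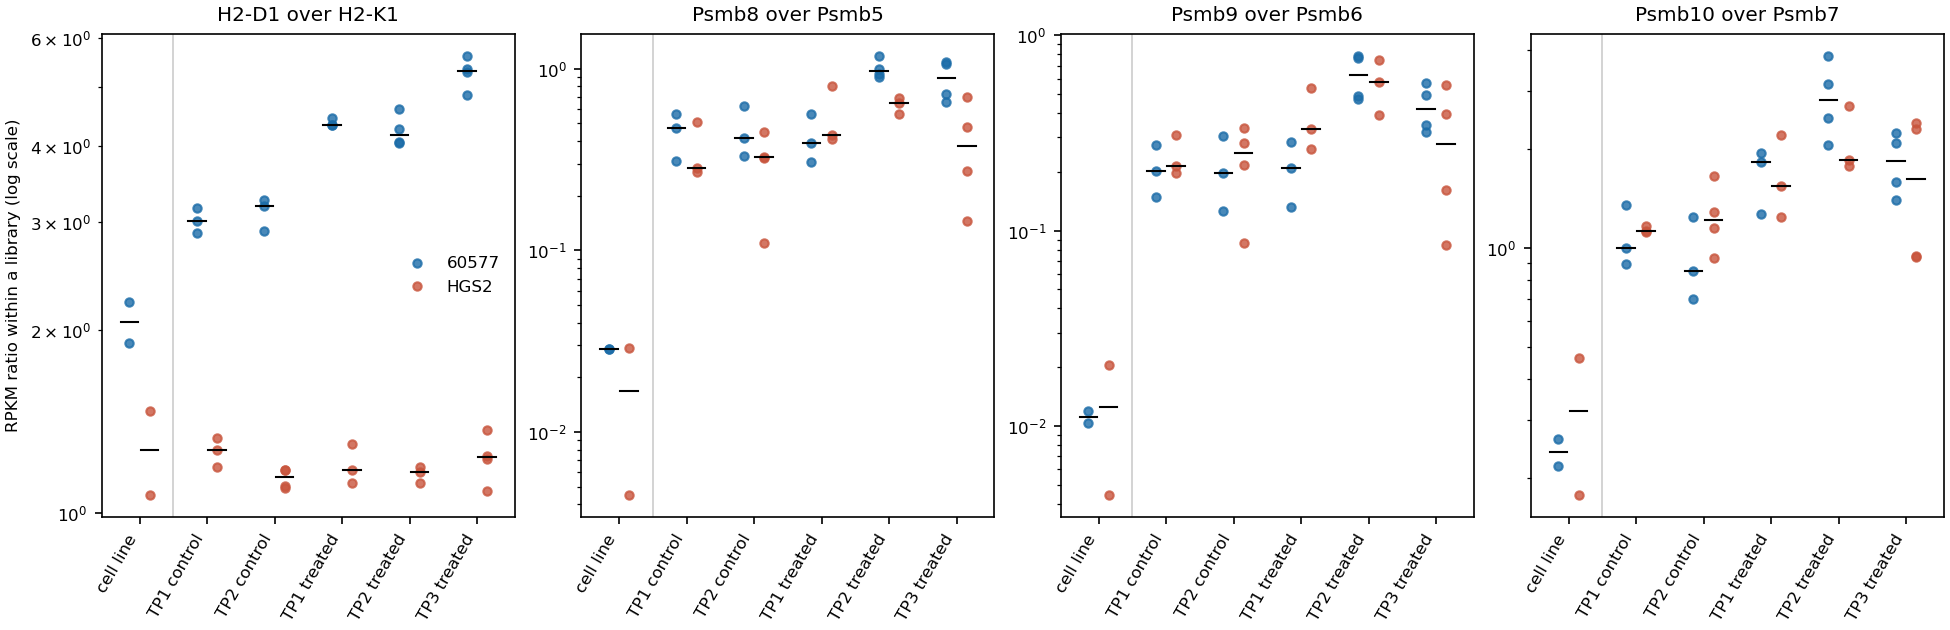
Ratio of 2 genes' RPKM within each library (log axis) by group, in 60577 (blue) and HGS2 (red). Points are libraries and black lines group medians; H2-D1 over H2-K1 separates all treated from all control tumors in 60577, at 4.04 to 5.62 against 2.88 to 3.26, and not in HGS2.

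In HGS2 tumors 0 of 10 members passed the test in any of the 7 comparisons, and by edgeR 0 (0%) of 16239 genes did. At an unadjusted p below 0.05 there were 413 genes at TP1, 1233 at TP2 and 406 at TP3. At TP2 all 10 members had positive log2 fold changes, from 0.32 for Tapbp to 2.02 for Nlrc5. Of the genes at an unadjusted edgeR p below 0.05 at TP2, 780 were higher and 453 lower. The share of all genes with a positive or a negative value was not counted, so the members' common sign cannot be set beside it. Nlrc5 was at 8.18, 1.96, 10.7 and 8.43 RPKM in TP2 controls and at 15.4, 51.7 and 21.4 in treated tumors, with every treated tumor above every control (95% interval 0.62 to 3.42, adjusted p = 0.588). The lowest control was the pancreas-rich replicate 2. The highest treated tumor, replicate 2, had a mitochondrial share of 0.322%, and without it the Nlrc5 difference was 1.33. H2-K1 and H2-D1 had 1.05 (0.25 to 1.85) and 1.06 (0.33 to 1.79). Without the pancreas-rich tumors the values of Nlrc5, H2-K1 and H2-D1 were 1.70, 0.82 and 0.82. At TP3 the same 10 genes lay between -0.24 and 0.06. Without the pancreas-rich tumors all 10 were negative at TP3, from -1.40 for Nlrc5 and -1.19 for Tap1 to -0.13 for Tapbp, with no call (adjusted p = 0.864 for Nlrc5). In simulated counts with the spread of these tumors, the fit recovered 7% of genes changed by 1 on the log2 scale at TP2 and 63% of those changed by 2, against 54% and 91% in 60577.

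Set against each other, the 60577 and HGS2 treatment effects differed beyond the test's threshold for 0 of 10 members at TP1, beside 1.77% of all genes, and for 0 of 10 at TP2, beside 10.3%. In simulated counts with 200 changed genes, the TP2 fit recovered 9.5% of genes changed by 1 on the log2 scale and 60.5% of those changed by 2. At TP2 the largest gaps were those of B2m, at -1.28 ± 0.55 (60577 minus HGS2, adjusted p = 0.125), and H2-K1, at -1.20 ± 0.47 (adjusted p = 0.0924). Without the 60577 tumors low in mitochondrial reads they were -0.67 and -0.87 (adjusted p = 0.462 and 0.341), and Nlrc5 was at -0.65. Among control tumors, H2-K1, B2m and Psmb10 were higher in HGS2, 3 of 10 beside 28.1% of all genes higher. B2m was higher by 0.88 ± 0.29 (adjusted p = 0.0135), Psmb10 by 0.69 ± 0.21 (adjusted p = 0.00856) and H2-K1 by 1.14 ± 0.25 (adjusted p = 0.000503). Without HGS2 TP1 control replicate 1 the calls of B2m (0.63, adjusted p = 0.0725) and Psmb10 (0.48, adjusted p = 0.0538) were lost. Without the pancreas-rich HGS2 tumors Tap1 (0.85, adjusted p = 0.0088) and Psmb9 (0.58, adjusted p = 0.044) were called in addition. H2-D1 had -0.23 (95% interval -0.70 to 0.25). Leukocyte markers were also higher in HGS2 controls, all 4 of 4, with a median log2 fold change of 1.23. Macrophage markers summed to 174 to 337 RPKM in HGS2 controls and 73.2 to 134 in 60577 controls. Tumor epithelial markers summed to 14.2 to 425 RPKM in HGS2 controls and 900 to 1585 in 60577 controls. The cell lines grown alone also differed in this sum, with 637 to 891 RPKM in HGS2 and 2479 to 2672 in 60577. The part of these markers in the members' values was not tested.

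The other genes of the pathway in 60577 at TP2 did not move together, where 29.3% of all genes were higher and 29.2% lower. Of 13 other class I genes tested, 8 were higher and none lower, with H2-M2 at 2.54, H2-Q10 at 1.70 and Cd1d1, which presents lipids, at 1.64. Of 8 other loading genes, 5 were lower, among them the chaperones Hspa5 (-1.05), Calr (-0.74) and Canx (-0.68), and 1 was higher. Of the 11 other core proteasome subunits 10 were lower, with a median of -0.94, and of 4 activator genes 2 were lower. Without the 2 tumors low in mitochondrial reads, where 22.7% of all genes were higher and 23.8% lower, 4 of 13 other class I genes were higher, 2 of 8 loading genes lower, and 9 of 11 core subunits lower with a median of -0.49.

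The counts of the next lists stand beside 29.3% of all genes higher and 29.2% lower at TP2. Of 8 genes that act with NLRC5 or CIITA on the promoter, 2 were higher at TP2, namely Ciita (1.53) and Rfx5 (0.75), and 4 were lower, among them Nfyb (-0.85). In the interferon gamma axis 7 of 11 were higher and 2 lower, with Socs1 at 2.21, Irf8 at 1.65 and Irf1 at 0.73, and with Socs3 at -1.25 and Jak2 at -0.75. Ifng itself stayed under the filter and was listed at 0 to 0.612 RPKM in 60577 tumors. The T cell markers were higher in 5 of 5 genes (median 2.77) and the pan-leukocyte markers in 2 of 4 (median 0.85, with Ptprc at 1.75), the B cell markers in 3 of 3 (median 3.70) and the adipocyte markers in 3 of 3 (median 5.75), while tumor epithelial markers were lower in 7 of 7 tested (median -2.41). Their part in the members' values was not tested.

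At TP1, when no member was called, all 4 leukocyte markers were already higher (median 1.27) and 4 of 11 interferon axis genes were, beside 17.2% of all genes higher. At TP3, 6 of 13 other class I genes, 6 of 11 interferon axis genes and all 4 leukocyte markers were higher, beside 25.4% of all genes higher, and 2 of the 11 interferon axis genes were lower, beside 26% of all genes lower. In HGS2 none of these lists had a called gene at TP2, where 0 (0%) of all 16239 genes were called.

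The genes outside the 10 members whose tumor-to-tumor pattern was most like the members' mean were Dtx3l, Psme2b and H2-M3 in 60577, with root mean square differences of 0.157, 0.171 and 0.172 on the log2 scale over 17 tumors. In HGS2 they were Samhd1, Dtx3l and Slfn2, with 0.161, 0.193 and 0.205 over 16 tumors. Among the members themselves Psmb10 (0.134) was closest to the mean in 60577 and H2-D1 (0.109) in HGS2, whereas Nlrc5 (0.626) and B2m (0.573) were farthest from it in 60577, and Nlrc5 (0.608) and Tapbp (0.472) in HGS2. The mean of the members varied more in HGS2 (SD 0.633) than in 60577 (SD 0.388). The pancreas-rich HGS2 tumors and the 60577 tumors low in mitochondrial reads were included in these values, and their part was not tested.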

How the data were processed

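Bulk RNA sequencing covered 34 omental tumors and 4 cell line libraries. After ribosomal RNA depletion and strand-specific sequencing, the authors trimmed reads with Trim Galore 0.6.5, aligned them to GRCm38 with STAR 2.7.0f and deposited RSEM expected counts (estimated counts per gene, without scaling or filters). These were rounded. A minimum of 1 CPM in 25% of libraries left 16241 genes in tumors and 13742 in cell lines. TMM scaling preceded the two-sided quasi-likelihood test of edgeR 4.0.16 in R 4.3.3, with Benjamini-Hochberg p-values adjusted over all genes and calls at an adjusted p of 0.05. Each model was fitted over its groups, and 33 tumors entered a shared fit for contrasts between models. The HGS2 fit held 16 tumors. RPKM used TMM-scaled CPM and merged GENCODE M21 exon length. Ratios were tested with scipy 1.17.1, with 100000 permutations between models. The test was checked on simulated data with 200 changed genes.

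The members and lists were chosen with earlier results of these data known. All 10 members are named, with up to 5 called genes per list and a few preset genes; 1 gene of these lists and 1 motif are not reported here. Replicates differed beyond sampling noise, but the labels do not say that they came from separate experiments, so p-values measure the spread between these samples. Same-numbered tumors correlated at 0.115 to 0.144 in 60577 and 0.136 to 0.298 in HGS2 at TP2, but not in every pair at TP1, so the numbers were not taken as pairs. Alternatives were DESeq2 1.42.0, limma-voom, other scaling, no filter, a length and GC offset, a replicate block, a joint fit and leaving out libraries.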

Additional observations from a re-analysis of the deposited data

Results flagged for a closer look

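The treated minus control difference in the log2 ratio of H2-D1 over H2-K1 was larger in 60577 than in HGS2 by 0.591, which drew attention because the response differed between the models (permutation of treatment labels within each model, adjusted p = 0.00048). In 60577 the difference was 0.594, in 11 of 11 treated tumors above all 6 controls, and in HGS2 it was 0.00347. The ratio was chosen after the levels had been seen. The models carry different H2 haplotypes, which cannot be told apart from the model.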

How the results depend on the processing

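The limits are small groups, no TP3 controls, and 2 heavy chain genes whose reads can be shared. The counts of members called at 60577 TP2 (3) and TP3 (3) stayed at 2 to 4 under the other scaling, tools, filter, offset and block, but 0 of 3 at TP3 exceeded an absolute log2 fold change of 1. The cause of the changes that follow was not tested. With the DESeq2 Wald test, 1 member was called at 60577 TP1, 1 in the model difference at TP2 and 1 between cell lines. With the length and GC offset, 1 was called in the model difference at TP2, 1 from TP2 to TP3, 0 from TP1 to TP3, and 6 between control tumors (3 in the reported fit). With the offset and the replicate block, these last 3 counts were 1, 0 and 6, and treated TP2 against TP1 gave 0.

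With the replicate block alone, treated 60577 tumors gave 0 members for TP2 against TP1, 0 for TP3 against TP1 and 1 for TP3 against TP2, and the cell lines 1. Exchanging the numbers of the HGS2 libraries in that block, since same-numbered cell line libraries correlated at -0.153, also gave 1. With both models fitted together, the 3 comparisons of treated 60577 tumors gave 0 each. Without a filter they gave 0 for TP3 against TP1 and 1 for TP3 against TP2, and the cell lines gave 2. Under the limit on fold change, TP3 against TP1 gave 0 and the control tumors 1.

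Leaving out the 60577 tumors low in mitochondrial reads, chosen after seeing the data, gave 0 members for TP2 against TP1 and 0 for TP3 against TP2. It also ended the calls of Psmb8 over Psmb5 (0.6348) and Psmb9 over Psmb6 (0.7596). Leaving out the pancreas-rich HGS2 tumors gave 5 members between control tumors. Leaving out each library in turn gave 0 to 1 members at 60577 TP1, 2 to 5 at TP2 (5 without TP2 control replicate 1), 0 to 6 at TP3 (6 without that same control), 0 to 1 for TP2 against TP1, 0 to 2 for TP3 against TP1, 0 to 3 for TP3 against TP2, 0 to 2 for the model difference at TP2, 1 to 4 between control tumors (1 without HGS2 TP1 control replicate 1) and 0 to 6 between cell lines. The 60577 log2 differences then ranged from 0.6595 to 0.8854 for Psmb8 over Psmb5 and from 0.8465 to 1.135 for Psmb9 over Psmb6, and most left-out tumors ended these calls, whereas H2-D1 over H2-K1 and Psmb10 over Psmb7 stayed called. In HGS2 they ranged from 0.3483 to 0.7878 for Psmb8, 0.3647 to 0.8305 for Psmb9 and 0.359 to 0.5499 for Psmb10, and all 3 were called without TP3 treated replicate 3, Psmb10 also without TP3 treated replicate 4.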
